A study of Mus musculus with 8 samples.

Results

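The 9 genes described here are the mouse 2',5'-oligoadenylate synthetases Oas1a, Oas1b, Oas1c, Oas1g, Oas1h, Oas2 and Oas3 and the OAS-like genes Oasl1 and Oasl2. They were picked by gene symbol from the deposited normalized table, joined by Ensembl identifier to the counts, and are 9 of 55536 counted genes. RNA was sequenced from 8 liver tumors of male C3H mice, 6 to 8 weeks old by the labels although the study's methods give a younger range, into whose livers 1000000 HCA-1 cells, a mouse hepatocellular carcinoma line, had been injected below the capsule. The 4 IMQNP tumors (replicates 1, 2, 3 and 4) were taken 3 h after 1 intravenous dose of PFSUV-IMQ on day 17, and the 4 Control tumors (replicates 1, 3, 4 and 5) came from mice that the study's methods describe as given saline. PFSUV-IMQ is imiquimod, a TLR7 agonist, carried in phospholipid-free small unilamellar vesicles. No group received empty vesicles or free imiquimod, so the drug and its carrier cannot be told apart, and all tumors come from the same cell line. The labels do not say that each tumor came from a separate mouse. P-values set the difference between the groups against the spread between these tumors. The comparison asks which genes of the family differed between tumors with and without the TLR7 agonist.

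OAS enzymes are sensors of double-stranded RNA in the cytosol. Once bound to it, they join ATP into short chains with 2'-5' bonds, called 2-5A, which act as second messengers of the antiviral response. The genes are classical targets of type I interferon, whose receptor sends the ISGF3 complex, with Stat2 and Irf9 among its parts, to interferon-stimulated response elements in promoters. The family is not uniform. Oas1a and Oas1g are active synthetases, Oas1b is known for resistance to flaviviruses and carries a premature stop in most laboratory strains, and several other mouse Oas1 copies lack catalytic activity. Oas2 and Oas3 hold repeated synthetase units in 1 chain. Oasl2 retains synthetase activity, whereas Oasl1 has lost it and is known to hold back translation of Irf7.

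All 9 genes lie on chromosome 5 in the GENCODE M21 annotation of GRCm38, to which every counted identifier belongs. Oas2 (120730333 to 120749853), Oas3 (120753098 to 120777661), Oas1c (120800194 to 120812514), Oas1b (120812635 to 120824163), Oas1h (120861421 to 120873506), Oas1g (120876142 to 120887613) and Oas1a (120896256 to 120907521) share 1 cluster with Oas1d, Oas1e and Oas1f that spans 191320 bp. Oasl2 (114896936 to 114912234) and Oasl1 (114923240 to 114937915) form a pair of 40980 bp. Oas1b and Oas1c stand head to head with their starts 121 bp apart. Oas1b is annotated as a polymorphic pseudogene, and the other members as protein coding.

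The promoter sequences below are shown because the genes moved together and because the interferon-stimulated response element can be read in some of them. They come from RefSeq windows on GRCm38.p6 that run from 250 bases before to 50 bases after each gene's start. Windows were found for 7 of the 9 members, all but Oas1b and Oas2, and the stretch before Oas1b was read from the window of Oas1c, on the strand of Oas1b and up to its GENCODE start. The motif searched was GAAANNGAAA on both strands, and overlapping matches were counted. Capitals mark the matched bases, and each sequence is written 5' to 3' on the gene's own strand.
Oas1a (chr5:120907526-120907585, minus strand, the 60 bases before the start): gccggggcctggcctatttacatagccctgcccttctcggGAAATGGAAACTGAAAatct
Oas1g (chr5:120887614-120887673, minus strand, the 60 bases before the start): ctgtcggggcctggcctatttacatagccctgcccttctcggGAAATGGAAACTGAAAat
Oas1b (chr5:120812575-120812634, plus strand, the 60 bases before the start): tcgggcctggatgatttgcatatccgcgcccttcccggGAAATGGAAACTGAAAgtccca
Oas1h (chr5:120861362-120861421, plus strand, the 60 bases before the start): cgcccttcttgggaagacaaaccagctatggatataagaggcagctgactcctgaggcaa
Oas3 (chr5:120777690-120777759, minus strand, 70 bases that end further from the start): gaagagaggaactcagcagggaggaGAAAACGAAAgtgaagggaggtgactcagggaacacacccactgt

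Oas1a, Oas1b and Oas1g carried the same run of 16 bases with a pair of overlapping matches. It began 20 bases before the start of Oas1a, 18 bases before that of Oas1g and 22 bases before that of Oas1b. The printed stretches of Oas1a and Oas1g shared an unbroken run of 56 bases, whereas those of Oas1a and Oas1b shared 19 and those of Oas1a and Oas1h shared 8. The same 16 bases before Oas1b hold the only matches in the Oas1c window, where they lie 114 to 99 bases before the Oas1c start on the opposite strand. The match of Oas3 began 75 bases before its start. No match was found in the windows of Oas1h, Oasl1 and Oasl2, which says only that these letters are not in the 300 bases searched. The motif was thus present in 4 of 7 members with a window. It was present in 3.44% of all 32851 windows, in 3.99% of 11348 tested genes with a window and in 29.1% of 265 genes called higher with a window. These shares are descriptions, and binding of a factor was not measured.

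Total counts per tumor were 16883911 to 27687756 in Control and 17008151 to 18527613 in IMQNP. Levels are given as CPM, that is counts divided by library sizes that edgeR's TMM factors make comparable, and 3 counts correspond to 0.105 to 0.210 CPM, a limit that covers counting error only. The quasi-likelihood test of edgeR compared the groups, and p-values were adjusted by the Benjamini-Hochberg method over 15998 tested genes. A gene was called higher or lower when its adjusted p was below 0.05 and its log2 fold change exceeded 1 in size. The median log2 fold change of all tested genes was -0.03.

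Of the 9 genes of the family, 8 had at least 10 counts in every tumor. All 8 were called higher in IMQNP, where 2.26% of tested genes (362 of 15998) were called higher and 0.200% lower. Their fold changes ran from 4.91 for Oas1c to 17.6 for Oasl1, with a median of 11.1 (log2 2.30 to 4.14, median 3.48), and adjusted p-values lay between 0.000499 and 0.00636. For each of the 8, every IMQNP tumor lay above every Control tumor, a pattern seen in 6.00% of tested genes, with the opposite pattern in 3.28%. A log2 fold change at least as high as that of Oas1c was seen in 1.21% of tested genes. The other member, Oas1h, passed the filter on low counts only through its IMQNP tumors, so it had to differ, and its test adds no support. The 9 genes together took 0.0143 to 0.0167% of all counts in Control tumors and 0.118 to 0.222% in IMQNP tumors.

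**Figure D1:**
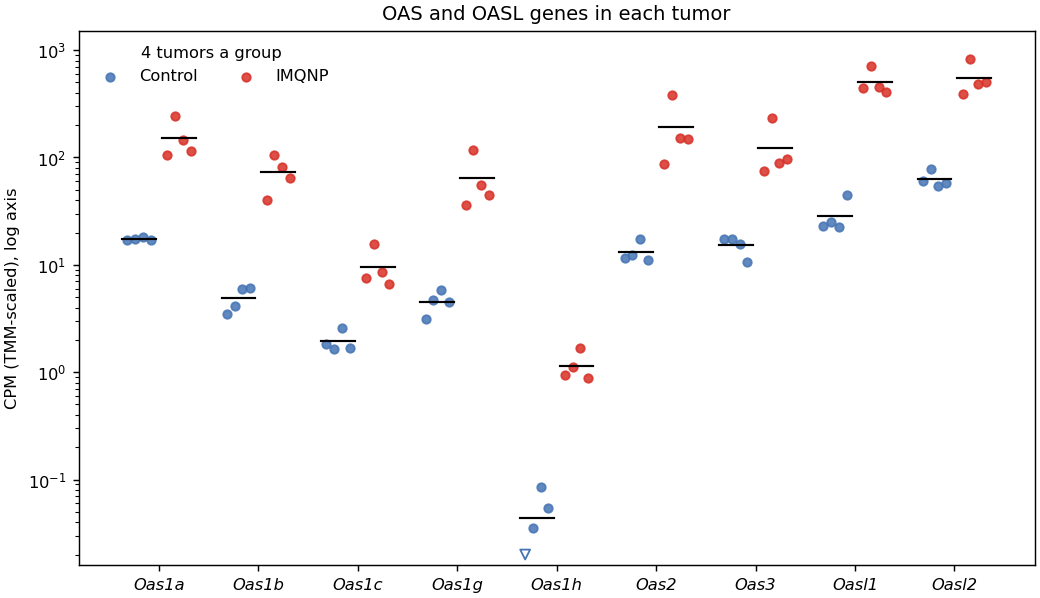
CPM on a log axis for each of the 9 family members, with 1 point per tumor (4 Control in blue, 4 IMQNP in red) and a black line at each group's mean. The open triangle stands for the Oas1h value of 0 in Control replicate 1. Red points lie above all blue points for all 9 members.

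Oas1a, an active synthetase of the small form, was the most even member in Control, with a coefficient of variation of 3.16%. Counting error alone is at least this large at its Control counts of 369, 498, 422 and 312. The evenness is therefore not read as a trait of the gene. The level of Oas1a was 17.0, 17.5, 18.1 and 16.9 CPM in Control replicates 1, 3, 4 and 5, and 105, 243, 145 and 116 CPM in IMQNP replicates 1 to 4. The Control tumors differed by little more than 1 CPM, whereas IMQNP replicate 2 stood above the other IMQNP tumors. The means were 17.4 ± 0.549 and 152 ± 62.8 CPM (SD, n = 4 each). This was an 8.75-fold increase, or 3.13 ± 0.27 (SE) on the log2 scale, with an adjusted p of 0.000594 in edgeR's quasi-likelihood test.

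Oas1g is a near copy of Oas1a. It measured 3.13, 4.71, 5.80 and 4.51 CPM in the Control tumors and 36.1, 119, 55.4 and 44.8 CPM in the IMQNP tumors. The groups were far apart, and the highest IMQNP value was again that of replicate 2. The log2 fold change was 3.81 ± 0.41 (SE), or 14.0-fold, with an edgeR adjusted p of 0.00139. The transcripts of both genes are alike: 57.6% of the 50-base stretches of the Oas1a transcript also occur in Oas1g, and 54.1% of those of Oas1g occur in Oas1a. Reads of these stretches could have been split or dropped by the counting, so the levels of this pair are less certain than those of the other members.

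Oas1b, the flavivirus resistance gene, measured 3.46, 4.15, 5.93 and 6.08 CPM in Control and 40.3, 106, 82.2 and 64.9 CPM in IMQNP. The lowest IMQNP tumor was thus 6.63 times the highest Control tumor. Its log2 fold change of 3.91 ± 0.34 (SE), or 15.0-fold, had an edgeR adjusted p of 0.000594. Only 3.41% of its 50-base stretches occur in another gene. RNA level does not tell which allele of Oas1b was read or whether protein was made.

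Oas1c, the head-to-head partner of Oas1b, changed least. It measured 1.84, 1.65, 2.58 and 1.68 CPM in Control and 7.50, 15.6, 8.53 and 6.56 CPM in IMQNP. Even the lowest IMQNP tumor lay above all Control tumors. The change was 4.91-fold, or 2.30 ± 0.33 (SE) on the log2 scale, with an edgeR adjusted p of 0.00636. When edgeR tested against a minimum log2 change of 1 rather than against 0, its adjusted p became 0.0524, and this was the only refit of any member that lost the call. The log2 ratio of Oas1b to Oas1c, a pair chosen after its values were seen and therefore not tested, was 1.28 ± 0.38 in Control and 2.93 ± 0.42 in IMQNP (SD, n = 4 each), and the groups did not overlap. An antisense gene, Gm43069, overlaps 9.44% of the Oas1c exons, and it held at most 3 counts in any tumor.

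Oas1h was barely detected in Control. It had 0, 1, 2 and 1 counts in Control and 17, 16, 30 and 16 counts in IMQNP. Every Control tumor was thus below 3 counts, and every IMQNP tumor was above. The summed counts, 4 against 79, gave a ratio of 26.5 after scaling, with a 95% interval of 9.94 to 99.6 that covers counting error only. The fitted log2 fold change of 4.54 ± 0.56 (SE) depends on the prior count at such levels. It is given as a description, since Oas1h was tested only because of its IMQNP counts. Oas1h was the only member whose highest IMQNP value was not in replicate 2.

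When the counts of the 5 Oas1 members were added before the fit, so that reads split among them were put back together, the log2 fold change was 3.38 ± 0.30 (SE) and the edgeR adjusted p 0.000672. Reads that the counting dropped, or gave to Oas1e, are not recovered by the sum. The 3 other Oas1 copies of the cluster stayed below the filter and were not tested. Oas1e had 1, 4, 0 and 1 counts in Control and 6, 3, 7 and 13 in IMQNP, a scaled ratio of 6.48 (95% counting interval 2.64 to 19.1). Oas1d had 0 counts in every Control tumor and 0, 3, 1 and 1 in IMQNP, and Oas1f had 0 counts in all 8 tumors, fewer than the 3 counts taken as detectable.

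Oas2, the synthetase with a pair of synthetase units, measured 11.6, 12.4, 17.3 and 11.2 CPM in Control and 86.3, 384, 152 and 147 CPM in IMQNP. Within the IMQNP group replicate 2 was far above replicate 1, and the coefficient of variation of 68.3% was the largest of any member there. Its log2 fold change was 3.87 ± 0.45 (SE), or 14.6-fold, with an edgeR adjusted p of 0.00243. Without IMQNP replicate 2 it was 3.27 on the log2 scale, still called.

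Oas3, which senses long double-stranded RNA, measured 17.2, 17.4, 15.6 and 10.5 CPM in Control and 74.4, 232, 88.7 and 96.9 CPM in IMQNP. The groups did not overlap, and replicate 2 again stood apart from the other IMQNP tumors. The log2 fold change was 3.01 ± 0.38 (SE), or 8.08-fold, with an edgeR adjusted p of 0.00327. Oas2 and Oas3 are direct neighbours on the minus strand and share no or few 50-base stretches with other genes (0% and 0.792%).

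Oasl1, the catalytically inactive member that restrains Irf7 translation, had the smallest p-value of the family and ranked 7 of 15998 tested genes by p. It measured 22.9, 24.8, 22.4 and 44.5 CPM in Control and 443, 715, 458 and 405 CPM in IMQNP. Control replicate 5 stood above its group, yet the lowest IMQNP tumor was still 9.10 times as high. The log2 fold change was 4.14 ± 0.32 (SE), or 17.6-fold, with an edgeR adjusted p of 0.000499. An antisense gene, Gm13822, overlaps 1.46% of the Oasl1 exons, and the strand setting of the counting is not given in the sources used here, so their reads cannot be told apart there.

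Oasl2, the OAS-like gene with synthetase activity, measured 60.1, 77.5, 54.4 and 57.7 CPM in Control and 394, 823, 487 and 509 CPM in IMQNP. The groups were well apart, with replicate 2 the highest. It rose 8.86-fold, or 3.15 ± 0.27 (SE) on the log2 scale, with an edgeR adjusted p of 0.000594.

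IMQNP replicate 2 had the highest level of its group for 8 of 9 members, for 88.4% of the 362 genes called higher and for 34.8% of all tested genes. Over the 9 members, the mean log2 change from the Control mean was 2.80, 4.04, 3.29 and 3.05 in IMQNP replicates 1 to 4. Without replicate 2, all 9 members were still called, with log2 fold changes of 1.94 to 4.55 and a largest adjusted p of 0.00491 in edgeR's test, Oas1h again through its IMQNP counts. Hepatocyte markers summed to a median of 8775 CPM in IMQNP tumors and to at most 31656 CPM in Control. Replicate 2 had 33412 CPM of them, the highest of its group. It also had the highest summed T cell, B cell, NK cell, neutrophil and plasmacytoid dendritic cell markers of the IMQNP group, with neutrophil markers at 99.6 CPM against 20.4 CPM in the lowest IMQNP tumor. Of its 19.4 CPM of NK cell markers, 18.4 CPM were Eomes. Its macrophage and endothelial marker sums were not the highest of the group. Its summed hepatoma markers, 5.03 CPM, were the lowest of all 8 tumors. The part of these markers in the height of replicate 2 was not tested.

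In bulk tumors, more cells that express a gene and more RNA per cell cannot be told apart. None of the tested markers of 9 cell types was called, and the summed level of each list overlapped between the groups. Single markers with an unadjusted edgeR p under 0.05 were Retnlg of neutrophils, at 0.767 ± 0.754 CPM in Control and 4.24 ± 4.49 CPM in IMQNP and apart between the groups, and Clec4f, Cd5l, Siglech and Ncr1, with log2 differences of -0.96, -0.80, -1.11 and -1.63. Their edgeR adjusted p-values were 0.291 for Retnlg and 0.122 to 0.325 for the others. Retnlg had 34, 6, 1 and 23 counts in Control and would not have passed the filter on low counts without its IMQNP tumors. Its p-value therefore adds no support. Clec4f and Cd5l mark Kupffer cells, Siglech plasmacytoid dendritic cells and Ncr1 NK cells. The other tested plasmacytoid dendritic cell markers, Ccr9 (0.56) and Pacsin1 (0.08), and NK cell marker, Eomes (0.52), had log2 differences of the opposite sign. The part of all these markers in the family's levels was not tested. Macrophage and Kupffer cell markers summed to 291 to 487 CPM in Control and 160 to 340 CPM in IMQNP. Plasmacytoid dendritic cell markers, the cells best known for TLR7, summed to 4.70 to 8.25 CPM in Control and 3.48 to 9.57 CPM in IMQNP. Hepatocyte markers ranged from 4181 to 31656 CPM in Control and from 6038 to 33412 CPM in IMQNP. The tumors are labelled as hepatocellular carcinoma, and 4 hepatoma markers summed to only 5.03 to 10.8 CPM, of which Igf2 had at most 3 counts in every tumor. Mitochondrial genes took 1.37 to 4.72% of counts in Control and 1.59 to 6.65% in IMQNP.

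Levels of different genes can be compared only per length, so CPM was divided by the kilobases of each gene's merged exons. On this scale the family summed to 40.4 ± 3.61 CPM per kb in Control and 491 ± 185 in IMQNP (SD, n = 4 each). In Control, Oasl1 (11.0 ± 4.07), Oasl2 (9.80 ± 1.62) and Oas1a (9.23 ± 0.291) led, and neighbours in this order overlapped among the tumors. Oas2 (2.95), Oas1b (2.46), Oas3 (2.15) and Oas1g (1.94) followed, also with overlapping ranges between neighbours, and Oas1c (0.806) and Oas1h (0.0257) were lower without overlap. In IMQNP, Oasl1 alone led with 194 ± 54.3 CPM per kb and was above Oasl2 (86.8 ± 29.3) in 4 of 4 tumors without overlap. With the longest transcript as length the ranges of this pair overlapped, at 186 to 328 CPM per kb for Oasl1 and 126 to 264 for Oasl2. Oas1a (80.8 ± 33.3), Oas2 (43.2), Oas1b (36.9), Oas1g (27.2) and Oas3 (17.4) came next with overlapping neighbours, then Oas1c (3.98) and Oas1h (0.677) without overlap.

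The share of Oasl1 in the family's summed level per length was 26.9 ± 7.55% in Control and 40.5 ± 4.99% in IMQNP (SD, n = 4 each), with overlap between the groups through Control replicate 5. Oas1a (23.0 ± 2.21% and 16.3 ± 0.926%), Oasl2 (24.4 ± 4.31% and 17.9 ± 1.47%) and Oas1c (2.02 ± 0.525% and 0.802 ± 0.0848%) had lower shares in IMQNP. Their shares were lower in every IMQNP tumor than in every Control tumor, although the levels of these genes rose. Oas1b, Oas2 and Oas1g had shares of 4.80 to 7.37% in Control and 5.27 to 8.18% in IMQNP on average. The shares depend on the length used. With the longest transcript in place of merged exons, Oasl2 led in Control at 36.6% before Oasl1 at 23.8%, and Oasl1 led in IMQNP at 37.0% before Oasl2 at 27.8%.

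**Figure D2:**
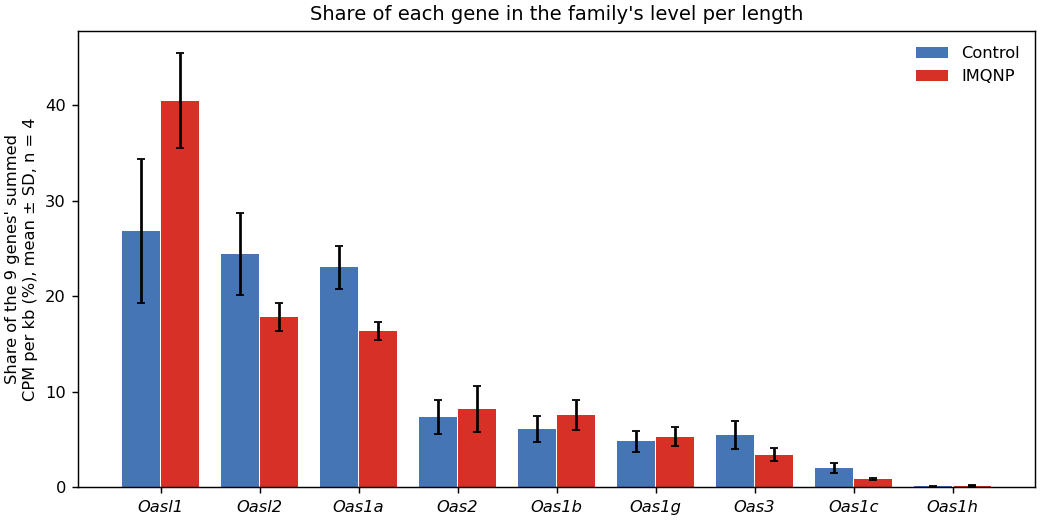
Share of each gene in the summed CPM per kilobase of merged exons of the 9 members, in percent, as group mean with SD over 4 tumors (Control in blue, IMQNP in red). The Oasl1 bar is higher in IMQNP (40.5% against 26.9%), and those of Oasl2, Oas1a, Oas3 and Oas1c are lower.

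Ratios within a tumor remove what the members share. They are ratios of CPM, so their size depends on the lengths of both genes. Only their difference between the groups does not depend on length. The log2 ratio of Oasl1 to Oasl2 was -1.17 ± 0.55 in Control and -0.11 ± 0.21 in IMQNP (SD, n = 4 each), a difference of 1.06. The log2 ratio of Oas1a to Oas1g was 1.95 ± 0.33 in Control and 1.33 ± 0.21 in IMQNP, a difference of -0.62. The log2 ratio of Oas2 to Oas3 was -0.21 ± 0.37 in Control and 0.58 ± 0.25 in IMQNP, a difference of 0.78. Oasl1, Oas1g and Oas2 therefore rose by the larger factor of their pair. In each of the 3 pairs the groups did not overlap, and the exact two-sided permutation p was 0.0286 (n = 4 against 4), the smallest this design allows, also after adjustment over the 3 pairs. The margins were narrow. The nearest Control and IMQNP tumors stood at -0.374 and -0.329 for Oasl1 to Oasl2. They stood at 1.63 and 1.54 for Oas1a to Oas1g, whose reads may be split, and at 0.146 and 0.213 for Oas2 to Oas3. With any 1 tumor left out, p cannot go below 0.0571, and it took that value in each such test. This follows from the lack of overlap and adds no support.

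**Figure D3:**
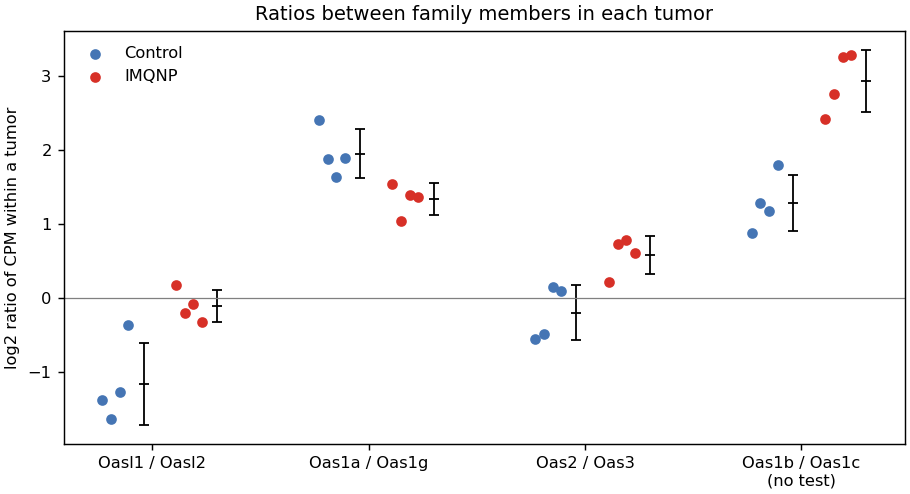
Log2 ratio of CPM between 2 members within each tumor (points, 4 Control in blue and 4 IMQNP in red), with the group mean and SD in black. Oasl1 / Oasl2, Oas2 / Oas3 and Oas1b / Oas1c are higher and Oas1a / Oas1g is lower in every IMQNP tumor, and the Oas1b / Oas1c pair was not tested.

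Of the list of genes for the use and breakdown of 2-5A, Pde12 and Akap7, which break it down, and Abce1, an ATP-binding protein also known for ribosome recycling, were not called. Their log2 fold changes were -0.12 for Abce1, 0.04 for Pde12 and 0.06 for Akap7, and the 95% intervals of all 3 stayed between -0.60 and 0.54. None of these 3 genes was called in any of the refits, and none had an unadjusted p under 0.05.

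**Figure D4:**
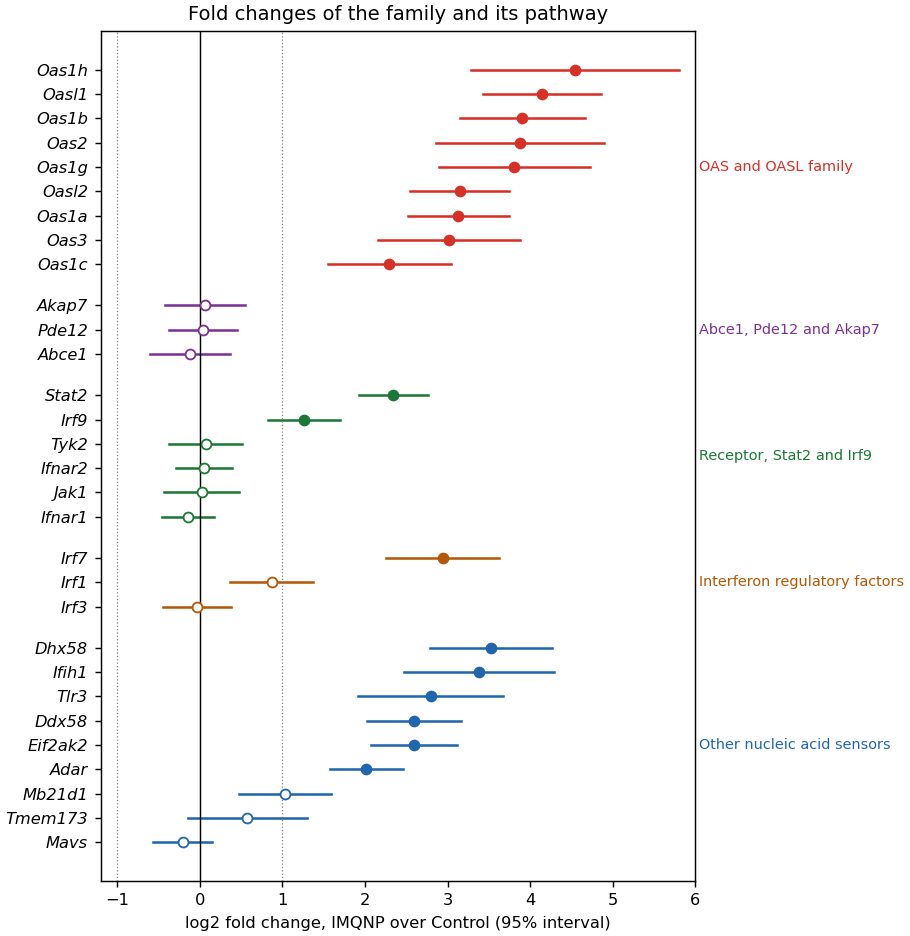
Log2 fold change of IMQNP over Control with its 95% interval for the 9 members and 21 tested pathway genes, grouped by list. Filled circles mark called genes, open circles genes not called, and dotted lines a log2 change of 1 in either direction. All 9 members are filled, Oas1h having been tested only through its IMQNP counts, Abce1, Pde12 and Akap7 lie near 0, and the other lists hold both kinds.

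Of the interferon receptor and ISGF3 list, Stat2 and Irf9, which belong to the factor, rose and the 4 receptor and kinase genes did not pass. Stat2 rose from 102 ± 11.9 to 517 ± 81.3 CPM (log2 fold change 2.34, edgeR adjusted p 0.000499). Irf9 rose from 53.2 ± 7.93 to 127 ± 26.8 CPM (1.26, adjusted p 0.00870). Ifnar1, Ifnar2, Jak1 and Tyk2 had log2 fold changes of -0.14, 0.05, 0.02 and 0.07. Stat2 and Irf9 therefore changed by less than the median of 3.48 of the 8 well-counted members.

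Among the interferon genes and their factors, 3 of 8 were tested. Irf7, the factor whose translation Oasl1 restrains, rose from 67.8 ± 13.3 to 520 ± 219 CPM (SD, n = 4 each). Its log2 fold change was 2.94 ± 0.31 (SE), with an edgeR adjusted p of 0.00121. Irf1 (0.87, adjusted p 0.0939) and Irf3 (-0.03) were not called. Interferon transcripts themselves were near the limit. Ifnb1 had 2, 4, 0 and 2 counts in Control and 4, 7, 3 and 3 in IMQNP, which is 0 to 0.141 CPM against 0.165 to 0.489 CPM after scaling. The groups did not overlap, but most values were at or near 3 counts and the gene was not tested. Ifna1, Ifna2, Ifna4 and Ifna5 had at most 3 counts in every tumor. A difference in these 4 was not detectable at this depth.

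Of 9 other sensors of nucleic acids, 6 rose with the family. The helicases Dhx58 (log2 fold change 3.53), Ifih1 (3.38) and Ddx58 (2.59), the endosomal receptor Tlr3 (2.79), the kinase Eif2ak2 (2.59) and the editing enzyme Adar (2.02) were called, with edgeR adjusted p-values up to 0.00522. Mavs (-0.21), the adaptor of the helicases, Tmem173 (0.57), the STING gene, and Mb21d1 (1.03, adjusted p 0.0695), the cGAS gene, were not. Over all pathway lists, 9 of 21 tested genes were called higher and 0 lower, and 11 had an unadjusted p under 0.05. Over all 15998 tested genes, 362 (2.26%) were called higher and 2078 had an unadjusted p under 0.05. The lists were written with earlier results of these data known and are no independent evidence of a direction.

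The genes outside the family whose pattern was most like it were found by the mean absolute difference, over the 8 tumors, between a gene's log2 change from its Control mean and the mean of the 9 members. They were the helicase Dhx58 (0.111), Helz2 (0.135), Hap1 (0.148), Slfn5 (0.220) and Phf11a (0.234), against a median of 1.80 over 15989 tested genes outside the family. Members themselves differed from their own mean by 0.169 for Oas1a to 0.653 for Oas1c. Dhx58, Helz2 and Hap1 were each closer to the family's mean than Oas1a, the closest member. They were picked for the smallest differences among 15989 tested genes, so no shared function is read from this closeness. Hap1 rose from 4.17 ± 1.07 to 42.1 ± 15.6 CPM, and Helz2 from 49.5 ± 4.65 to 504 ± 207 CPM (SD, n = 4 each). The points share depth and the tall replicate 2, and the measure is given with no test.

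Most tested genes around the family were not called. Within 500 kb of either cluster, 46 of 92 annotated neighbours were tested, 3 were called higher and 0 lower. Over all tested genes, 362 of 15998 (2.26%) were called higher. The share among the neighbours was thus larger, but it rests on 3 calls. Beside the cluster of Oas1, Oas2 and Oas3, 2 of 17 tested neighbours were called. They were Trafd1, a regulator of innate immune signalling, at a distance of 450 kb (log2 fold change 2.16, edgeR adjusted p 0.00243) and Naa25 at 476 kb (1.07, adjusted p 0.0156). Trafd1 was called in each fit without 1 tumor, whereas Naa25 was not called without Control replicate 3 or 4 or IMQNP replicate 2, 3 or 4 (log2 fold change 0.96 to 1.10, adjusted p up to 0.0663). Beside the Oasl pair, 1 of 29 was called. It was Gm13822, antisense within the pair, which went from 0.0856 ± 0.0583 to 2.42 ± 1.65 CPM (log2 fold change 4.70, edgeR adjusted p 0.00783). Its Control mean was below the level of 3 counts, so it passed the filter only through IMQNP, the fitted change depends on the prior count, and its call adds no support. Without it, 2 neighbours were called.

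The genes directly beside the clusters were too low to test or were not called. Dtx1 and Rph3a, 18.4 and 18.8 kb from the Oas cluster, held at most 12 and 2 counts in any tumor and were not tested. Next to the Oasl pair, 4930519G04Rik held at most 1 count, and 2210016L21Rik, 4.24 kb away, had a log2 fold change of -0.23 (edgeR adjusted p 0.792). The median log2 fold change of the 46 tested neighbours was -0.09, against 3.48 for the 8 well-counted members.

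**Figure D5:**
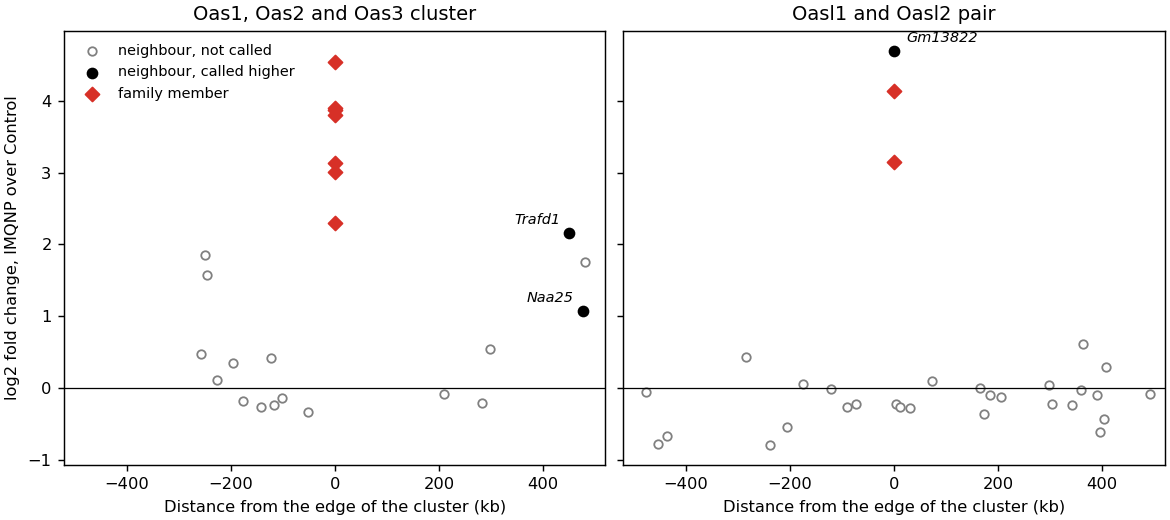
Log2 fold change of tested genes within 500 kb of the cluster of Oas1, Oas2 and Oas3 (left) and of the Oasl pair (right) against distance from the cluster's edge in kilobases, with 0 for genes inside. Diamonds are family members, black points called neighbours and open points neighbours not called. The members stand at 2.30 to 4.54, and most neighbours stand near 0.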

How the data were processed

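RNA libraries were made with the KAPA mRNA HyperPrep kit. The authors deposited whole-number counts of reads per gene. The study's methods name TopHat and HTSeq, whereas the submitters' processing notes list CASAVA, FastQC, MultiQC, Trimmomatic 0.38, HISAT2 2.1.0 and featureCounts 2.0.0. Genome build, annotation and strand setting are not given in the sources used here. A second deposited table holds signal values, the counts divided by 1 size factor per tumor (largest relative departure 5.4e-10), used for gene symbols and 1 alternative. It holds 36670 genes, of which 25 symbols read as dates.

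Counts were filtered (filterByExpr), scaled by TMM and tested with edgeR 4.0.16 in R 4.3.3 (quasi-likelihood, no covariates, Benjamini-Hochberg over 15998 genes). SEs were taken from the F statistic. Log2 ratios used a prior count of 2 and an exact permutation test in scipy 1.17.1. The fit was tried on simulated counts. Replicate numbers showed no sign of pairing tumors, and no 2 tumors of a group agreed within sampling noise. The labels give no sequencing batch or date. No value column was left without a sample.

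The members and gene lists were chosen with earlier results of these data known. The named genes are the members, the pathway lists, the 5 most alike genes, and called or directly adjacent neighbours. Alternatives were other normalizations, filters and tests, DESeq2 1.42.0, a replicate term, another prior count or length, and each tumor left out. The authors' size factors were added after seeing the data. Protein sequences were not used here, and some genes of the pathway lists are not reported here.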

Additional observations from a re-analysis of the deposited data

Results flagged for a closer look

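A tumor was singled out where its gap to the nearest tumor of its group of 4, as a share of the group's range, passed Dixon's test. The smallest share singled out was 0.830, so tumors with large gaps below the test's limit are not listed. Of 60 groups of members and tested pathway genes, 6 were singled out, and chance gives about 5% of groups. IMQNP replicate 2 was the highest of its group in 4 of the 6. It held 232 CPM of Oas3 with the next IMQNP tumor at 96.9 and 715 CPM of Oasl1 with the next at 458. It also held 848 CPM of Irf7 with the next at 425, and 210 CPM of Dhx58 with the next at 94.4.

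The other 2 were in Control replicate 5, which had the highest Oasl1 level, 44.5 CPM with the next at 24.8, and the lowest Ifih1 level, 21.2 CPM with the next at 41.7. What sets these tumors apart was not tested.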

How the results depend on the processing

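The 9 members, Oas1h through its IMQNP counts alone, were called higher in the reported fit and in each fit that left out 1 tumor, and 160 of 161 refits of single members gave the same direction and call. The exception was Oas1c against a minimum log2 change of 1 (adjusted p 0.0524). With at least 10 counts in every tumor Oas1h was not tested, leaving 8 members. The log2 fold change of the summed Oas1 counts stayed between 3.03 and 3.54.

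The count of all genes called, 362 higher and 32 lower, became 619 and 131 with DESeq2, 541 and 92 with the exact test, 119 and 1 with a minimum log2 change of 1, and 491 and 63 with no filter on low counts. It was 197 (without Control replicate 1) to 375 higher and 8 (without IMQNP replicate 4) to 38 lower with 1 tumor left out. The labels use numbers 1, 3 and 4 for tumors of both groups. The deviations of same-numbered tumors correlated at 0.294, -0.268 and -0.316. No pairing by number was seen, which so few tumors cannot settle. With the replicate block, 416 genes were higher and 267 lower, and all 9 members were called. None of the tumors with a shared number correlated best with its own number.

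The log2 ratio differences with the replicate block, over 3 pairs, were 1.35 for Oasl1 to Oasl2, -0.54 for Oas1a to Oas1g and 0.83 for Oas2 to Oas3, where the smallest exact p is 0.25. With 1 tumor left out they were 0.90 to 1.32, -0.72 to -0.46 and 0.66 to 0.91. The exact p was 0.0571, the smallest of that design, which follows from groups that do not overlap. Of the 3 called neighbours, Naa25 lost its call in 5 of 8 fits without 1 tumor and against a minimum log2 change of 1, and Gm13822 was not tested with at least 10 counts in every tumor. Gm43068 was also called with DESeq2 and with no filter, making 4. The 5 most alike genes shared 3 with those found in IMQNP tumors alone.

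Of 378 refits of pathway genes, 345 gave the same direction and call, 1 lost a call (Irf9 against a minimum log2 change of 1), 4 gained one (Mb21d1), and 28 of uncalled genes changed sign. The last were Pde12 (upper quartile -0.030, replicate block -0.096, 1 tumor left out -0.074 to 0.14), Akap7 (upper quartile -0.014, block -0.15, left out -0.11 to 0.16), Ifnar2 (-0.028, -0.013, -0.044 to 0.11 in the same order), Jak1 (-0.047, -0.036, -0.066 to 0.18), Tyk2 (upper quartile -0.0072, left out -0.059 to 0.18) and Irf3 (block 0.075, left out -0.13 to 0.061). The cause of these shifts was not tested. Counts at or under 3 limit Oas1h in Control, Oas1d, Oas1e, Oas1f and the interferon genes.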

Other observations

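A further annotated gene, Gm43068, lies inside the cluster of Oas1, Oas2 and Oas3, and it was chosen after its values were seen. Its position, 120746036 to 120747308, is within the span of Oas2 but outside the Oas2 exons. With the strand setting not given, its reads cannot be told apart from unspliced Oas2 RNA. Gm43068, an annotated transcript with no assigned type of product, held at most 32 counts in any tumor and was not tested in the reported fit. Its level was 0.0230 ± 0.0461 CPM in Control and 0.904 ± 0.906 CPM in IMQNP (SD, n = 4 each).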
